A study of Cyprinus carpio with 6 samples.

Results

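The 100 most abundant lncRNAs of juvenile common carp (Cyprinus carpio) gonad are described here. They are the 100 IDs beginning with MSTRG that were chosen by the highest mean CPM over 6 RNA-seq libraries, where CPM (counts per 1000000) scales the counts on all features of a library to the same total. They were taken from 10770 lncRNA features and 60206 features in all, of which 5443 lncRNAs had a count in any library. The MSTRG IDs were treated as lncRNAs and the CAFS IDs as mRNAs, since the study names them so, and the coding potential of the MSTRG IDs was not examined again. Since the members were selected on their abundance, their levels are given as a description.

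The control group was injected intraperitoneally with water (libraries control 1 to 3). The treatment group received dsRNA against igf3, 5 μg per g of body weight (libraries igf3-dsRNA 1 to 3). All fish were of the FFRC No. 2 strain, were 8 weeks post hatching and gave their gonads 24 h after the injection. The labels call the genotype WT in the control group and igf3-knockdown in the treatment group, and the knockdown is an injection of dsRNA into wild-type fish rather than a mutant allele. Each group had 15 injected and 9 sampled fish, and whether a library is of 1 fish or of pooled fish is not stated, so n counts libraries and a p-value measures the spread between these libraries only. The control group received no unrelated dsRNA, so an effect of any dsRNA and an effect of igf3-dsRNA cannot be told apart.

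LncRNAs are long transcripts without a recognized protein-coding frame. Some act on chromatin, on transcription of nearby genes or on the stability of other RNAs, and many are known to be expressed in testis and ovary. igf3 encodes an insulin-like growth factor found in fish gonads, where it acts on the development of germ cells. Total RNA depleted of ribosomal RNA was sequenced, a procedure that keeps transcripts with and without a poly(A) tail. The IDs of the count tables were matched to a gene table of the species, in which 0 of them occurred. No gene name, position, neighbouring gene or role is therefore given for any member. The study states that positions, overlaps with coding genes and annotations of its transcripts are available elsewhere, and these were not used here. For the same reason igf3 itself and the markers of germ cells and somatic gonad cells were not followed. By qRT-PCR the study reported less igf3 mRNA after the injection of igf3-dsRNA. Fewer cells of a type and less RNA per cell cannot be told apart in these bulk libraries.

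Counts on features summed to between 2064856 and 3166031 per library. These were 7.26 to 8.50% of the uniquely placed read pairs of sufficient quality, while 91.4 to 92.6% were on no feature. These libraries are strand-specific, but the sources do not say which strand was counted. The strand of origin of the counts is therefore not known, for members and for mRNAs. Levels given for mRNAs may not be those of the sense transcripts. Features with near-identical copies or with a partner on the opposite strand are uncertain. So are lncRNAs that overlap exons of a coding gene, which the study kept among its lncRNAs. Which members do so was not examined here. Control 2 stood apart with the lowest normalization factor by the TMM method of edgeR (0.798), and igf3-dsRNA 3 had the highest (1.28). Below, normalized CPM is CPM taken over the TMM-normalized library size.

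The 100 lncRNAs held a large part of the counts on features, which are called all counts below. Those counts were only 7.26 to 8.50% of the uniquely placed read pairs of sufficient quality. The members' share of them was 43.0, 53.6 and 38.8% in controls 1 to 3, against 45.4, 43.5 and 34.4% in igf3-dsRNA 1 to 3. The highest share was that of control 2 and the lowest that of igf3-dsRNA 3, and the groups overlapped. The group shares were 45.1 ± 7.65% in the control group and 41.1 ± 5.89% in the treatment group (SD, n = 3 libraries each), a difference smaller than the spread within either group. Within the lncRNA counts alone the members held 78.0 ± 6.13 and 76.1 ± 5.79% (SD, n = 3 libraries each). Over all 6 libraries the shares rested on 710049 to 1697743 member counts per library.

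The first ranks carried much of this. The 10 highest held 21.4, 28.9 and 17.0% of all counts in controls 1 to 3, against 24.7, 19.2 and 14.9% in igf3-dsRNA 1 to 3. The other 90 held between 19.5% in igf3-dsRNA 3 and 24.7% in control 2, so their share differed less between libraries than that of the first 10. Among all 60206 features, members made up 9 of the 10 and 17 of the 20 with the highest mean CPM, and 56 of the 100. This ranking beside mRNAs rests on counts whose strand is not known. A mean of 1000 CPM or more was reached by 57 members.

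**Figure D1:**
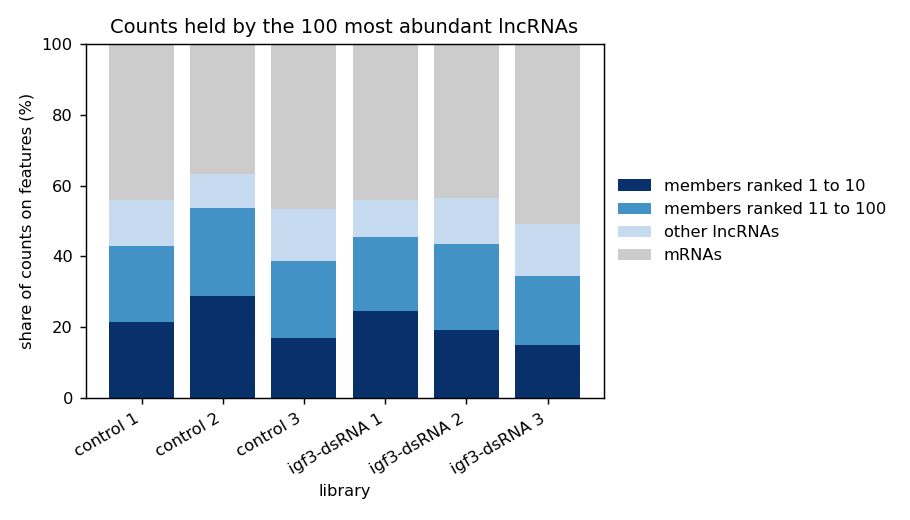
Share of the counts on features (y axis, %) in each library (x axis) held by the members ranked 1 to 10, the members ranked 11 to 100, the other lncRNAs and the mRNAs. The members together held 53.6% in control 2 and 34.4% in igf3-dsRNA 3, and the first 10 members account for most of that gap.

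At the edge of the ranking the levels changed gradually. The last members were MSTRG.26495, MSTRG.46099 and MSTRG.40908 with a mean of 502.9, 492.3 and 491.6 CPM. The lncRNAs just outside were MSTRG.8010, MSTRG.18969 and MSTRG.51579 with 481.3, 475.5 and 465.3 CPM. Ranking by the median CPM kept 96 of the 100 and ranking by the lowest CPM of a library kept 88. The study checked 20 lncRNAs by qRT-PCR, picked from those it reported as differentially expressed. It stated that all of them changed in the same direction as in its RNA-seq data. Of these 20 lncRNAs, 0 were members, and the nearest was MSTRG.2504 at rank 106 with 439.7 CPM.

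The members were short. Their length, computed from the ratio of count to RPKM, ran from 202 bp (MSTRG.53092) to 996 bp (MSTRG.42099), with a median of 299.5 bp, and 63 were shorter than 350 bp. A length of 1000 bp or more was found for 0 of the 100, for 69 of the 1947 other lncRNAs tested (3.54%) and for 795 of the 5343 other lncRNAs with a count (14.9%). Median lengths were 292 bp in the other tested lncRNAs and 397 bp in the other lncRNAs with a count. The members thus resembled the tested lncRNAs in median length, and the longest lncRNAs were not among them. The shortest after MSTRG.53092 were MSTRG.18892 with 203 bp and MSTRG.48752 with 204 bp. After MSTRG.42099, the longest were MSTRG.13086 with 947 bp and MSTRG.29525 with 797 bp.

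CPM depends on transcript length, so it was divided by the length in kilobases. The study preferred cDNA fragments in a narrow range of lengths that starts at 350 bp, and 63 members are shorter than that. Whether this length includes adaptors is not stated. For these members, and for those little longer, the value per kilobase is uncertain, also beside that of the longer mRNAs. On this scale the members had a median of 3920 CPM per kilobase, from 631.7 in MSTRG.13086 to 93577 in MSTRG.40924. The 100 highest mRNAs by mean CPM had a median of 399.1 and all mRNAs reached at most 6226 CPM per kilobase. Of the members, 100 were above the first value and 39 above the second. The first count could not have been lower, since every member had at least 491.6 CPM and at most 996 bp. It follows from the selection on abundance and is no separate result. Both comparisons with mRNAs rest on counts whose strand is not known. Ranking all lncRNAs by CPM per kilobase kept 94 of the 100 members. The 3 whose rank fell most were MSTRG.13086 (from 82 to 249), MSTRG.42099 (from 69 to 196) and MSTRG.13980 (from 84 to 145). Those that climbed most were MSTRG.12794 of 205 bp (from 94 to 66), MSTRG.6608 of 216 bp (from 97 to 74) and MSTRG.12979 of 205 bp (from 81 to 61).

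MSTRG.11985, a feature of 593 bp, had the highest mean CPM of the lncRNAs. It had 115338, 110872 and 76526 counts in controls 1 to 3, against 61441, 79428 and 62367 in igf3-dsRNA 1 to 3. Its normalized CPM was 45800.0, 44973 and 27642 in controls 1 to 3, against 31789, 26236 and 24261 in igf3-dsRNA 1 to 3, or 39472 ± 10253 in the control group and 27428 ± 3903 in the treatment group (SD, n = 3 libraries each). Control 1 and control 2 were above all other libraries, but control 3 was below igf3-dsRNA 1, so the groups overlapped. On CPM of library sizes alone it had 45876, 35019 and 30532 in controls 1 to 3, against 27121, 25511 and 30204 in igf3-dsRNA 1 to 3, and there control 3 was just above igf3-dsRNA 3 and the groups did not overlap. The log2 fold change was -0.53 with a standard error of 0.44 (unadjusted p = 0.265, edgeR's quasi-likelihood test). MSTRG.11985 had the most counts of any lncRNA in control 1, control 3 and igf3-dsRNA 3, whereas MSTRG.33251 led in control 2 and igf3-dsRNA 2, and MSTRG.51252 in igf3-dsRNA 1.

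Per kilobase the order at the top was another one. MSTRG.40924, of 205 bp, was first with 93577 CPM per kilobase, followed by MSTRG.20445 (226 bp) with 77804, MSTRG.51252 (320 bp) with 77426 and MSTRG.20502 (206 bp) with 70089. MSTRG.33251 (437 bp) came next with 62855, and MSTRG.11985 was sixth with 54599. Between libraries the CPM per kilobase of these 6 lncRNAs had an SD of 37135 for MSTRG.40924, 16940.1 for MSTRG.20445, 25382 for MSTRG.51252, 50805 for MSTRG.20502, 24886 for MSTRG.33251 and 12441 for MSTRG.11985 (n = 6 libraries). Neighbours in this order therefore lay closer than their spread between libraries. MSTRG.40924, MSTRG.20445, MSTRG.51252 and MSTRG.20502 are shorter than 350 bp, so their values per kilobase are uncertain for the reason given above. The value of MSTRG.33251, at 437 bp, may be uncertain too.

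Among the 20 highest, 12 were highest in control 2 on normalized CPM, and 9 on CPM of library sizes alone. Of all features tested, 23.0% were highest in control 2 on normalized CPM. MSTRG.20502 had a normalized CPM of 7198, 40964 and 8643 in controls 1 to 3, against 26835, 7879 and 5961 in igf3-dsRNA 1 to 3. Control 2 and igf3-dsRNA 1 were thus far above the other libraries of either group. MSTRG.20813 had 20805, 52636 and 10347 in controls 1 to 3, against 32517, 23015 and 8982 in igf3-dsRNA 1 to 3, and MSTRG.40924 had 16632, 36406 and 8355 in controls 1 to 3, against 29753, 23768 and 9935 in igf3-dsRNA 1 to 3. In both, control 3 and igf3-dsRNA 3 were the lowest libraries, so high and low libraries occurred in both groups. MSTRG.29525 had 6565, 19832 and 7679 in controls 1 to 3, against 8456, 16172 and 5370.1 in igf3-dsRNA 1 to 3, with control 2 and igf3-dsRNA 2 high. MSTRG.5419 had 10969, 18978 and 8951 in controls 1 to 3, against 7781, 13509 and 5483 in igf3-dsRNA 1 to 3, again with control 2 the highest and igf3-dsRNA 3 the lowest library.

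Other lncRNAs of the first 20 were highest in igf3-dsRNA 1. MSTRG.51252 had a normalized CPM of 26798, 24445 and 25834 in controls 1 to 3, against 44845, 16940.1 and 15672 in igf3-dsRNA 1 to 3. MSTRG.28434 had 10316, 15913 and 11312 in controls 1 to 3, against 23223, 11925 and 8419.8 in igf3-dsRNA 1 to 3, and MSTRG.22572 had 8850.0, 8722 and 6872 in controls 1 to 3, against 16526, 9178 and 5365 in igf3-dsRNA 1 to 3. In each of these igf3-dsRNA 3 was below every control, so the igf3-dsRNA libraries held both the highest and the lowest value. On CPM of library sizes alone igf3-dsRNA 3 was below every control in MSTRG.22572 but not in MSTRG.51252 or MSTRG.28434. MSTRG.20445, with 19195, 25188 and 16345 in controls 1 to 3, against 25856, 15842 and 8952 in igf3-dsRNA 1 to 3, was about level in control 2 and igf3-dsRNA 1. MSTRG.15630 had 6881, 9235 and 9250.1 in controls 1 to 3, against 14071, 10079.9 and 4482 in igf3-dsRNA 1 to 3, with its extremes in igf3-dsRNA 1 and igf3-dsRNA 3.

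Other lncRNAs of the first 20 varied less. MSTRG.21342 had a normalized CPM of 15425, 19127 and 14012 in controls 1 to 3, against 18325, 14221 and 11709.6 in igf3-dsRNA 1 to 3, a coefficient of variation (CV, the SD over the mean of the 6 libraries) of 18.1%. MSTRG.2694 had 7589, 8784 and 8359 in controls 1 to 3, against 9155, 10883 and 6241 in igf3-dsRNA 1 to 3, a CV of 18.3%. These had the lowest CV of the first 20 on normalized CPM. On CPM of library sizes alone MSTRG.21342 was still lowest, with 4.62%, but MSTRG.15486 with 7.40% and MSTRG.15488 with 12.1% came before MSTRG.2694 with 16.3%. MSTRG.31809 had 11363, 9130.4 and 8499 in controls 1 to 3, against 11440.5, 11939.6 and 6695 in igf3-dsRNA 1 to 3, a CV of 21.1% on normalized CPM. On that scale the groups overlapped in all 20, and their log2 fold changes lay between -0.54 and 0.35, with a lowest unadjusted p of 0.265 (edgeR's quasi-likelihood test).

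**Figure D2:**
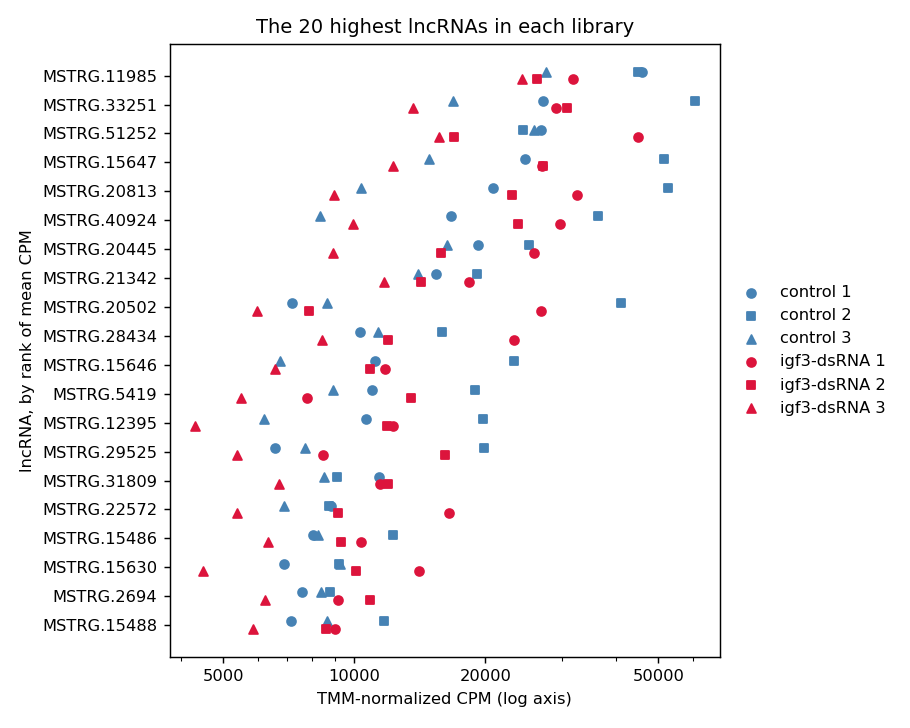
TMM-normalized CPM (x axis, log scale) of the 20 lncRNAs with the highest mean CPM (y axis, in order of rank) in each of the 6 libraries. Blue points are control and red points igf3-dsRNA libraries, and the shape gives the replicate number. Blue and red points overlap in every line, and the blue square of control 2 lies farthest right in 12 of the 20.

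The igf3-dsRNA and control libraries were compared to find lncRNAs that responded to the knockdown of igf3. All 100 members passed the filter on low counts, which kept 5843 features. A call required a Benjamini-Hochberg adjusted p below 0.05 over these features in the quasi-likelihood test of edgeR and a log2 fold change beyond 1 in either direction. By this rule 0 members were called, as were 0 of all features tested (0%). The methods of the study name edgeR and the same cut-offs, while its results give the p cut-off without calling it adjusted. The study reported differentially expressed lncRNAs and mRNAs. Why the calls differ was not tested. The lowest adjusted p of a member was 1.00 in that edgeR test. DESeq2 also called 0 members, with a lowest adjusted p of 0.175 and 15 features called in all. The exact test of edgeR called 0 members, with a lowest adjusted p of 0.489 and 9 features called in all. Without the filter on low counts, the quasi-likelihood test called 1 member, MSTRG.23456, and 112 of 38402 features. With the filter, the quasi-likelihood test gave 4 members at an unadjusted p under 0.05, against 2.72% of all features tested. Each of them also had a log2 fold change beyond 1, against 2.65%. Of these, 2 were higher in the treatment group, against 1.64% of all features tested, and 2 were lower, against 1.01%. The median standard error was 0.47 for a member and 0.61 for all features tested.

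The member with the largest fold change was MSTRG.23456, of 245 bp and rank 58. It had 293, 358 and 1987 counts in controls 1 to 3, against 5248, 2731 and 3234 in igf3-dsRNA 1 to 3. Its normalized CPM was 116, 145 and 718 in controls 1 to 3, against 2715, 902 and 1258 in igf3-dsRNA 1 to 3, or 326 ± 339 in the control group and 1625 ± 961 in the treatment group (SD, n = 3 libraries each). Every igf3-dsRNA library was above every control library, although control 3 was nearer to igf3-dsRNA 2 than to the other controls. The log2 fold change was 2.32 with a standard error of 0.75 (unadjusted p = 0.012, adjusted p = 1.00, edgeR's quasi-likelihood test). With each library left out in turn it ranged from 1.72 without igf3-dsRNA 1 to 3.63 without control 3. Over 15 alternatives the adjusted p ranged from 0.00168, when no low-count filter was applied, to 1.00.

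MSTRG.42755, of 297 bp and rank 31, was the other member that was higher. Its normalized CPM was 1576, 2535 and 1492 in controls 1 to 3, against 6317, 3079.8 and 2844 in igf3-dsRNA 1 to 3, or 1868 ± 579 in the control group and 4080.2 ± 1941 in the treatment group (SD, n = 3 libraries each). All igf3-dsRNA libraries were above the controls, igf3-dsRNA 1 by most, and on this scale igf3-dsRNA 3 and control 2 lay close together. On CPM of library sizes alone igf3-dsRNA 3 had 3540 and control 2 had 1974. The log2 fold change was 1.13 with a standard error of 0.46 (unadjusted p = 0.0341, adjusted p = 1.00, same edgeR test) and was 0.68 without igf3-dsRNA 1. Over 15 alternatives the adjusted p stayed between 0.733 and 1.00.

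MSTRG.31792, of 211 bp and rank 50, had the lowest p of the members that were lower in the treatment group. It had 7107, 4740 and 4150 counts in controls 1 to 3, against 197, 2245 and 2675 in igf3-dsRNA 1 to 3. The normalized CPM was 2822, 1923 and 1499 in controls 1 to 3, against 102, 742 and 1041 in igf3-dsRNA 1 to 3, or 2081 ± 676 in the control group and 628 ± 479.5 in the treatment group (SD, n = 3 libraries each). All igf3-dsRNA libraries were below the controls, with igf3-dsRNA 1 far below the rest. The log2 fold change was -1.73 with a standard error of 0.71 (unadjusted p = 0.0355, adjusted p = 1.00, same edgeR test), and it was -1.22 without igf3-dsRNA 1 and -2.30 without igf3-dsRNA 3. The adjusted p lay between 0.0887 and 1.00 over 15 alternatives.

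MSTRG.14484, of 475 bp and rank 27, was the other lower member. Its normalized CPM was 2969, 10301 and 4409 in controls 1 to 3, against 1988, 2919 and 2852 in igf3-dsRNA 1 to 3, or 5893 ± 3884 in the control group and 2586 ± 519 in the treatment group (SD, n = 3 libraries each). Control 2 was the highest library by far, whereas control 1 was barely above igf3-dsRNA 2. On CPM of library sizes alone igf3-dsRNA 3 (3551) was above control 1 (2974), so the groups overlapped there. The log2 fold change of -1.19 with a standard error of 0.51 (unadjusted p = 0.0447, adjusted p = 1.00, same edgeR test) went to -0.51 without control 2. The adjusted p was between 0.733 and 1.00 over 15 alternatives.

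The number of lower members at an unadjusted p changed when single libraries were left out. It was 0 without control 2, 4 without control 3 and 1 without igf3-dsRNA 1, igf3-dsRNA 2 or igf3-dsRNA 3. The number of higher members was 1 without control 1, 3 without control 3 and 0 without igf3-dsRNA 1. With library sizes alone in place of TMM, 0 members were lower and 2 higher. The shares of all features tested were not computed for these settings, so these counts have no background beside them.

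The normalized CPM of every igf3-dsRNA library was above every control library in 2 members, MSTRG.23456 and MSTRG.42755, against 3.53% of all features tested. It was below every control library in 4 members, against 2.96%. These were MSTRG.31792, MSTRG.14484, MSTRG.39105 and MSTRG.46817, the last pair of which was chosen after its values were seen. On CPM of library sizes alone only MSTRG.31792 of these stayed below every control. There igf3-dsRNA 3 was above control 1 in MSTRG.14484, above control 2 in MSTRG.39105 and above every control in MSTRG.46817. On normalized CPM there were 6 in either direction, against 6.49%, so the members' counts were near the background. MSTRG.39105 (242 bp) had 621, 732 and 606 in controls 1 to 3, against 322, 427 and 499 in igf3-dsRNA 1 to 3, and its log2 fold change was -0.65 with a standard error of 0.34 (unadjusted p = 0.0903, same edgeR test). MSTRG.46817 (254 bp) had 649.6, 645 and 666 in controls 1 to 3, against 555, 317 and 601 in igf3-dsRNA 1 to 3. On normalized CPM its control libraries were nearly level and igf3-dsRNA 2 was the only library far below them. For a single feature, the smallest two-sided exact permutation p that 3 libraries against 3 allow is 0.1.

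Over the whole list most log2 fold changes were between -1 and 1 (93 of the 100 members). The median log2 fold change of the members was -0.15, from -1.73 to 2.32, and that of all features tested was -0.02. A log2 fold change above 0 was found in 37 of the 100 members and in 48.1% of all features tested. The members were selected on abundance, and their median standard error was 0.47, against 0.61 for all features tested. Shares of large fold changes are therefore not compared at like abundance, and a difference in them is no separate trait of the members. An absolute log2 fold change over 1 was found in 7 members, against 12.3% of all features tested. Besides the 4 named above these were MSTRG.17027 with -1.35 ± 0.80, MSTRG.45715 with -1.05 ± 0.59 and MSTRG.19170 with -1.02 ± 0.75 (log2 fold change ± standard error), and in each of these the groups overlapped. Without control 2 the median of the members was 0.01, with 53 members above 0, and the median of all features was 0.03. Without igf3-dsRNA 3 the median of the members was -0.02, with 46 above 0, and that of all features was -0.05. The lower median of the list thus depended on these libraries. The shares of all features above 0 were not computed for these settings. With library sizes alone the median of all features shifted to 0.07, and that of the members was -0.06.

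**Figure D3:**
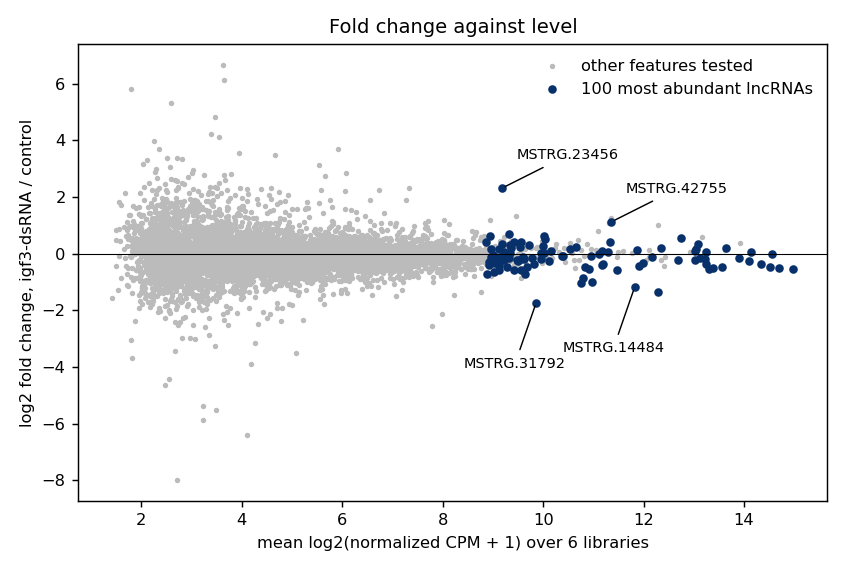
Log2 fold change between the igf3-dsRNA and the control group (y axis) against the mean level of each feature, as log2(normalized CPM + 1) over 6 libraries (x axis). Grey points are the other features tested and dark blue points the 100 members. The 4 named members are those with an unadjusted p under 0.05, and 0 of the 5843 features were called after adjustment.

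The members varied widely between libraries. The CV of normalized CPM over the 6 libraries had a median of 40.5% in the members, from 9.30 to 110%. It was 46.8% in the other lncRNAs tested, 44.7% in the mRNAs tested and 31.3% in the 100 highest mRNAs. With library sizes alone the median was 33.2% in the members, 50.1% in the other lncRNAs tested, 47.5% in the mRNAs tested and 29.4% in the 100 highest mRNAs. The gap between the members and the other lncRNAs was thus wider on that scale. There the members make up 34.4 to 53.6% of the totals that their counts are divided by, so this gap is not free of the scaling. Counting error was far smaller than these CVs. At the members' counts it gives a CV of 0.347 to 2.84%, and the CV of normalized CPM between libraries was at least 3.59 times as large in each member. PCR duplicates are not marked in these counts, and that bound covers counting error only. The highest library was over 2 times the lowest in 80 members and over 5 times in 20, and in 78 and 22 with library sizes alone.

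The 5 steadiest members on normalized CPM were all at rank 70 or lower on the list, which did not hold with library sizes alone. There the lowest CV was that of MSTRG.21342 at rank 8 (4.62%), followed by MSTRG.15486 at rank 17 (7.40%), MSTRG.4262 at rank 85 (9.29%) and MSTRG.42828 at rank 79 (9.45%). MSTRG.24824 (310 bp) had the lowest CV on normalized CPM, 9.30% (12.7% with library sizes alone), with a normalized CPM of 533, 621 and 596 in controls 1 to 3, against 649.8, 658 and 531 in igf3-dsRNA 1 to 3. MSTRG.42436 (353 bp) had 672, 731 and 545 in controls 1 to 3, against 716, 639 and 606 in igf3-dsRNA 1 to 3, a CV of 10.7%. In both, the groups overlapped and the highest library was under 1.5 times the lowest. MSTRG.42828, MSTRG.40908 and MSTRG.12792 followed on normalized CPM with a CV of 11.5%, 12.2% and 16.6%. A CV under 20% was found in 10 of the 100 members, in 102 of the 1947 other lncRNAs tested and in 266 of the 3796 mRNAs tested, and with library sizes alone in 15, 62 and 189.

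At the other end were lncRNAs that 1 or 2 libraries carried. MSTRG.17027 (294 bp), the most variable of the members with a CV of 110.0%, had 5666, 23198 and 2700.4 in controls 1 to 3, against 2963, 7429.6 and 1957 in igf3-dsRNA 1 to 3. Control 2 held 52.8% of its summed normalized CPM, and it was the only member of which 1 library held over 50% (46.4%, and 0 members, with library sizes alone). MSTRG.19170 (598 bp) had 1824, 7885 and 1362 in controls 1 to 3, against 3348, 1362 and 762 in igf3-dsRNA 1 to 3, with 47.7% in control 2. MSTRG.26686 (299 bp) had 1533, 196 and 442 in controls 1 to 3, against 419, 398 and 490.1 in igf3-dsRNA 1 to 3, so control 1 was high and control 2 was the lowest library. Such dominance by 1 library was seen in 96 of the other 1947 lncRNAs tested and in 141 of the 3796 mRNAs. The high CV of MSTRG.23456 and MSTRG.20502 completes the 5 most variable members, whose values are given above.

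MSTRG.16113 (448 bp, rank 43) was the only member near absence in a library. It had 3, 7622 and 11579 counts in controls 1 to 3, against 4230, 2962 and 4433 in igf3-dsRNA 1 to 3. Its 3 counts in control 1 are at the floor of 3 counts used here, and the lowest of the other libraries had 2962. Within the control group the normalized CPM therefore ran from 1.19 to 4182, a range that also held every igf3-dsRNA library. The log2 fold change was -0.57 with a standard error of 1.42 (unadjusted p = 0.695, same edgeR test). MSTRG.16113 was singled out after its values were seen. It was the only member with at most 3 counts in any library, against 239 of the other 1947 lncRNAs tested. Since the members were chosen for a high mean CPM, few of them could be that low, and the difference is no separate trait of them.

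The libraries in which the members were highest and lowest were unevenly distributed. Control 2 was the highest library for 41 members and the lowest for 22, so it was an extreme for 63 of the 100. It was the highest for 19.3% of the other lncRNAs tested and for 23.0% of all features tested. igf3-dsRNA 3 was the lowest library for 42 members and the highest for 4, and it was the highest for 15.2% of all features tested. The share of all features that were lowest in a library was not computed. The scaling had a part in the members' counts. With library sizes alone, control 2 was the highest for 28 and the lowest for 34, and igf3-dsRNA 3 the lowest for 13. With TMM factors of the mRNAs alone, chosen after seeing the data because the members hold so many of the counts, control 2 was the highest for 39 and igf3-dsRNA 3 the lowest for 42.

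The 22 members that were lowest in control 2 held none of the 20 highest ranks on normalized CPM. MSTRG.31809 and MSTRG.2694, at ranks 15 and 19, were lowest in igf3-dsRNA 3 on that scale and in control 2 only with library sizes alone. Of the 22 members, MSTRG.34786 had the highest rank (28). Its normalized CPM was 4416, 1991 and 4743 in controls 1 to 3, against 3813, 4452 and 3983 in igf3-dsRNA 1 to 3. MSTRG.35543 had 797, 200.4 and 2064 in controls 1 to 3, against 1495, 1254 and 2010.3 in igf3-dsRNA 1 to 3, and MSTRG.50268 had 1237, 309 and 1807 in controls 1 to 3, against 1099, 1058 and 1228 in igf3-dsRNA 1 to 3. In each of these control 2 was below every library of both groups, and control 3 was above every other. Control 2 was still the lowest library of all 3 with library sizes alone, while igf3-dsRNA 3 was the highest for MSTRG.35543. These examples were chosen after their values were seen.

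**Figure D4:**
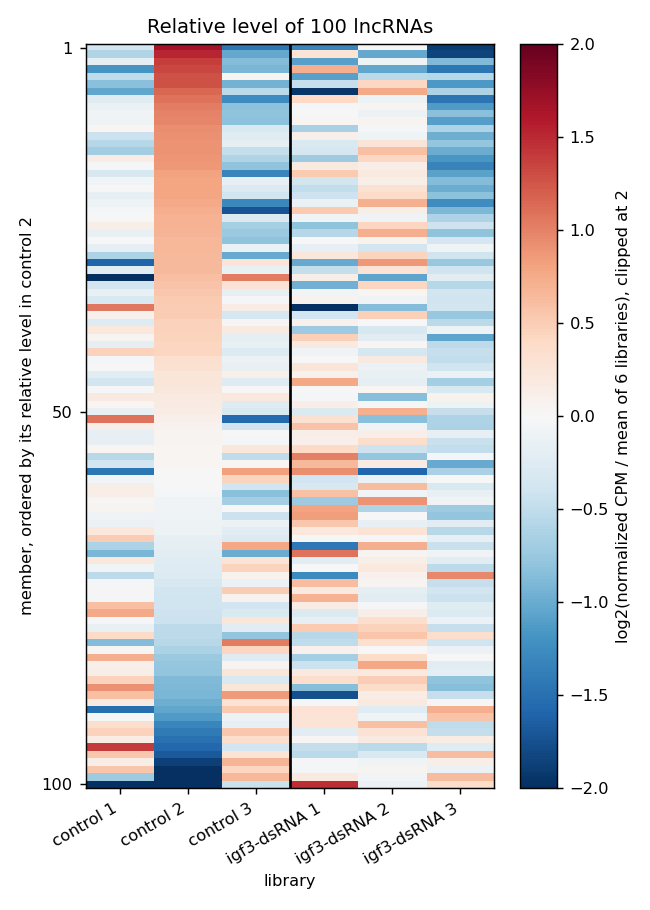
Level of each member (rows) in each library (columns) as log2 of its normalized CPM over its mean of 6 libraries, with colours clipped at 2 in either direction. Rows are ordered by the value in control 2, so the gradient in that column follows from the ordering. On this scale igf3-dsRNA 3 is low for most of the upper rows, and control and igf3-dsRNA columns do not form separate blocks.

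Some members kept a nearly fixed ratio to each other in all libraries. For each of the 4950 pairs of members the ratio of counts was taken in every library, which does not depend on the scaling, and the SD of its log2 over the 6 libraries was computed. The median of this SD was 0.803, and 51 pairs were under 0.2. These values describe 6 libraries, whose depth and composition all members share, and the pairs were chosen after their values were seen. The closest pair was MSTRG.33251 and MSTRG.15647, which are ranked 2 and 4. The ratio of their counts was 1.10, 1.18 and 1.13 in controls 1 to 3, against 1.08, 1.14 and 1.11 in igf3-dsRNA 1 to 3, with an SD of 0.043 on the log2 scale. Counting error alone would give 0.0086. The normalized CPM of MSTRG.33251 was 27193, 60603 and 16835 in controls 1 to 3, against 29144, 30817 and 13616 in igf3-dsRNA 1 to 3. The pair thus stayed within a narrow band while control 2 was 4.45 times igf3-dsRNA 3 for MSTRG.33251 and 4.19 times for MSTRG.15647 on normalized CPM. These were 2.78 and 2.62 times with library sizes alone.

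MSTRG.15647 has the ID number that follows MSTRG.15646, which moved with it. The normalized CPM of MSTRG.15647 was 24669, 51396 and 14847 in controls 1 to 3, against 26929, 27141 and 12267 in igf3-dsRNA 1 to 3, and that of MSTRG.15646 was 11172, 23300.3 and 6751 in controls 1 to 3, against 11787, 10839 and 6553 in igf3-dsRNA 1 to 3. Their count ratio was 2.21, 2.21 and 2.20 in controls 1 to 3, against 2.28, 2.50 and 1.87 in igf3-dsRNA 1 to 3, an SD of 0.136 on the log2 scale. MSTRG.12395 joined this set, with a normalized CPM of 10611, 19760.0 and 6185 in controls 1 to 3, against 12258, 11892 and 4300.0 in igf3-dsRNA 1 to 3. All 4 lncRNAs were highest in control 2, and control 3 and igf3-dsRNA 3 were the lowest libraries, on normalized CPM and with library sizes alone.

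Another set kept nearly fixed ratios at a narrow range. MSTRG.15486 and MSTRG.15488 (592 bp and 297 bp) were at ranks 17 and 20. MSTRG.15486 had a normalized CPM of 8013, 12266 and 8228 in controls 1 to 3, against 10329, 9300.4 and 6345 in igf3-dsRNA 1 to 3, and MSTRG.15488 had 7142, 11724 and 8654 in controls 1 to 3, against 9021, 8589 and 5848 in igf3-dsRNA 1 to 3. They had a count ratio of 1.12, 1.05 and 0.951 in controls 1 to 3, against 1.14, 1.08 and 1.08 in igf3-dsRNA 1 to 3, an SD of 0.095 on the log2 scale. MSTRG.7883, at rank 88, kept a nearly fixed ratio to MSTRG.15488, which had 12.6 to 14.8 times its counts, with an SD of 0.088. MSTRG.12545, MSTRG.4262 and MSTRG.21342 each kept a ratio to MSTRG.15486 with an SD under 0.2. For MSTRG.12545 the count ratio to MSTRG.7883 was 10.1 to 12.4. The CV of normalized CPM of these 6 lncRNAs was between 18.1% for MSTRG.21342 and 24.3% for MSTRG.7883, and on that scale control 2 was the highest and igf3-dsRNA 3 the lowest library of all 6. This profile depended on the scaling. On CPM of library sizes alone the CV was between 4.62% for MSTRG.21342 and 12.2% for MSTRG.7883. The highest library was then control 2 for MSTRG.15486, MSTRG.7883 and MSTRG.12545, control 3 for MSTRG.15488, igf3-dsRNA 1 for MSTRG.21342 and igf3-dsRNA 2 for MSTRG.4262. The count ratios are the same on either scale. Where both lncRNAs of a pair are steady their ratio is steady too, so these ratios do not show that the 6 lncRNAs moved together.

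Consecutive ID numbers were found for 8 pairs formed by 13 members. The numbers were given in the assembly, and whether consecutive numbers are neighbouring positions was not tested. Over these 8 pairs the median SD of the log2 ratio was 0.463, and over all 4950 it was 0.803. Single values ran from 0.136 for MSTRG.15647 and MSTRG.15646 to 1.02 for MSTRG.33329 and MSTRG.33330. Pairs within 1 run of numbers share members, so the 8 are not separate cases. The longest run was MSTRG.26118 to MSTRG.26122. Of these, MSTRG.26118 had a normalized CPM of 3662, 6589 and 3792 in controls 1 to 3, against 3031, 5085 and 3193 in igf3-dsRNA 1 to 3. MSTRG.26119 had 2237, 4305 and 1908 in controls 1 to 3, against 1886, 3254 and 1419 in igf3-dsRNA 1 to 3, and the log2 ratio of their counts had an SD of 0.225. MSTRG.26121 had 1245, 1666 and 917 in controls 1 to 3, against 899, 1629.7 and 696 in igf3-dsRNA 1 to 3, and its ratio to MSTRG.26119 had an SD of 0.171. MSTRG.26120 departed from the run, with 538, 2538 and 1942 in controls 1 to 3, against 807, 2966 and 960.0 in igf3-dsRNA 1 to 3. It was lowest in control 1 and igf3-dsRNA 1, and its ratio to MSTRG.26119 had an SD of 0.767. MSTRG.26122 had 1668, 4622 and 2206 in controls 1 to 3, against 2004, 2958 and 1460.3 in igf3-dsRNA 1 to 3, and, relative to its mean, was lower in control 1 than MSTRG.26121.

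The other consecutive numbers differed in how closely they moved. MSTRG.20813 had 7.80 to 20.2 times the counts of MSTRG.20814, which had a normalized CPM of 1238, 5326 and 1149 in controls 1 to 3, against 1608, 2952 and 995 in igf3-dsRNA 1 to 3. Both were highest in control 2, but igf3-dsRNA 1 came next for MSTRG.20813 and igf3-dsRNA 2 for MSTRG.20814. MSTRG.33329 had 3207, 1117 and 3817 in controls 1 to 3, against 626, 2344 and 1537 in igf3-dsRNA 1 to 3, and MSTRG.33330 had 1400.2, 1712 and 1261 in controls 1 to 3, against 1266, 2536 and 1124 in igf3-dsRNA 1 to 3. Their ratio had an SD of 1.02 on the log2 scale, above the median of all pairs, so consecutive numbers did not ensure a shared profile. MSTRG.8804 and MSTRG.8805 were both lowest in control 2, with 287 and 146 normalized CPM there, and the log2 ratio of their counts had an SD of 0.311.

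**Figure D5:**
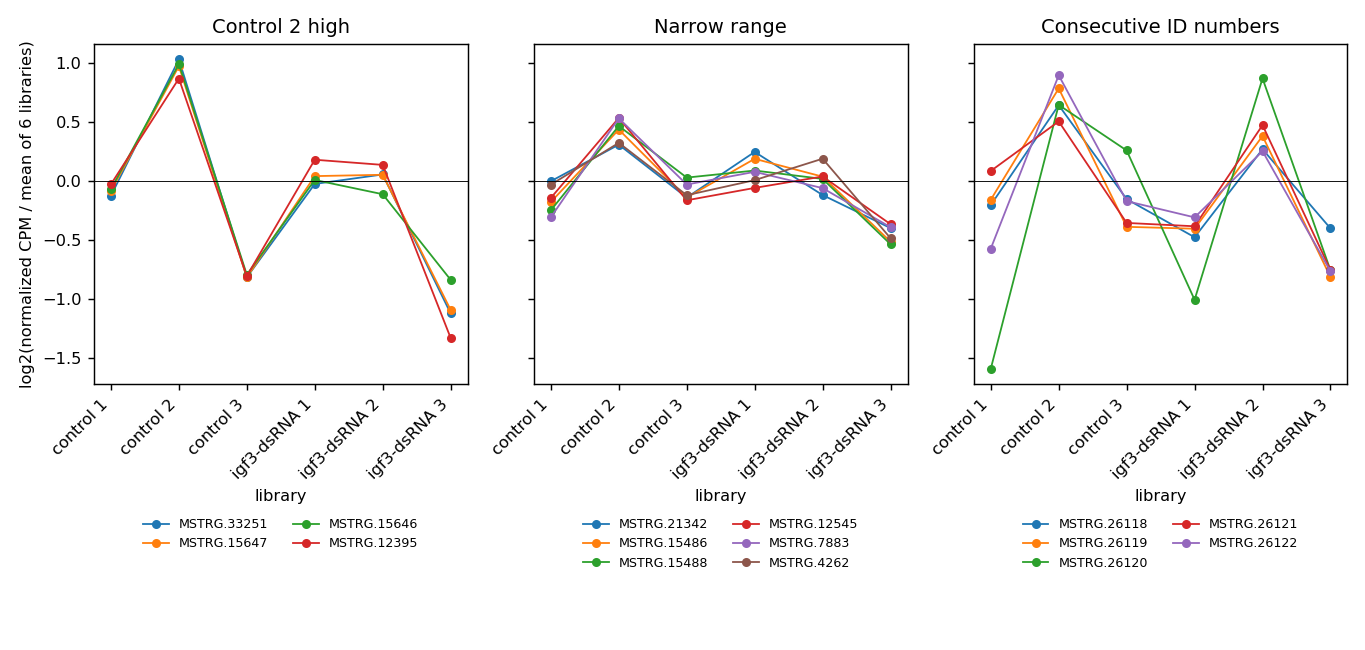
Log2 of normalized CPM over the mean of the 6 libraries (y axis) in each library (x axis) for 3 sets of members, where each line joins the values of 1 lncRNA only to guide the eye. Left, MSTRG.33251, MSTRG.15647, MSTRG.15646 and MSTRG.12395 rise and fall together with control 2 highest. Middle, 6 lncRNAs with a narrow range, whose common peak in control 2 is not kept with library sizes alone. Right, the run MSTRG.26118 to MSTRG.26122, in which MSTRG.26120 stands apart in control 1 and igf3-dsRNA 1.

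The ranking itself was much the same in both groups. Ranked by the control libraries alone, 96 of the 100 members were among the 100 highest lncRNAs, and by the igf3-dsRNA libraries alone also 96. MSTRG.23456 was at rank 138 by the control libraries alone, one of 4 members that left the first 100 there. In single libraries, between 81 members in control 2 and 92 in control 1 were among the 100 lncRNAs with the most counts. These overlaps share libraries with the mean that chose the members, so they describe the list and are no separate evidence of stability.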

How the data were processed

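The deposited tables hold unnormalized counts of read pairs on each feature, and RPKM values that the authors made from them. The study used Hisat2 for alignment to the common carp genome and StringTie 1.3.3b for assembly, and neither the counting program nor its strand setting is given in the sources used here. The series table and the library tables differed in 0 counts. Closing lines without a feature, 91.4 to 92.6% of the pairs placed with sufficient quality, stayed out of library sizes. Lengths came from the ratio of count to RPKM in each library, divided by the greatest common divisor of these ratios.

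All features were fitted in edgeR 4.0.16 (R 4.3.3) with filterByExpr, TMM, the quasi-likelihood test and Benjamini-Hochberg adjustment, with thresholds of 0.05 and 1 on the log2 scale. The standard error is the log2 fold change over the root of F. Counts per library ranged from 2064856 to 3166031. Alternatives were other normalization factors (RLE, upper-quartile or none), all features without a filter, DESeq2 1.42.0, the exact test, a replicate block, lncRNAs alone, each library left out, other rankings and, added after seeing the data, TMM factors of mRNAs and the spread between libraries on CPM of library sizes alone.

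The members and lists were chosen with earlier results of these data known. Named members are the 20 highest, up to 10 in each direction past the unadjusted threshold, any past the adjusted one or on the study's qRT-PCR list, the 5 lowest and 5 highest CV, those of which 1 library holds over 50%, the 3 longest and 3 shortest, the 3 largest shifts in rank per kilobase either way, consecutive IDs and the edge of the ranking. Sequences of the members were not analysed here.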

Additional observations from a re-analysis of the deposited data

How the results depend on the processing

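The count of members past the adjusted threshold was 0 in 14 of 15 alternatives and 1 without a filter on low counts, where MSTRG.23456 had a log2 fold change of 2.26 and an adjusted p of 0.00168 (edgeR's quasi-likelihood test over 38402 features, of which 112 were past the threshold). At an unadjusted p, 2 members were higher and 2 lower. With lncRNAs alone these were 1 and 1, with upper-quartile factors 1 member was lower and with library sizes alone 0. With each library left out in turn the higher members numbered 0 to 3 and the lower members 0 to 4. The shares of all features at an unadjusted p were not computed for these alternatives. The replicate block gave 2 higher and 3 lower members and 0 past the adjusted threshold. Deviations from the group means of same-numbered libraries correlated at 0.01, 0.00034 and 0.10, and those of control 2 correlated more with igf3-dsRNA 1 (0.07), so this block rests on a shared number only. The members lower in every igf3-dsRNA library numbered 4, against 2.96% of all features tested. With library sizes alone they numbered 2, MSTRG.31792 and MSTRG.11985, and the share of all features was not computed there. The median log2 fold change of the members stayed between -0.23 and 0.01. Taken over lncRNA counts alone, the members' share was 78.0% in the control group and 76.1% in the treatment group, by construction above the 45.1 and 41.1% of all counts. With each library left out, the members' share of all counts ranged from 40.9 to 48.3% in the control group and from 38.9 to 44.5% in the treatment group. Other rankings kept 88 to 100 of the 100. With library sizes alone, an alternative added after seeing the data for the spread, 15 members in place of 10 had a CV under 20% and 2 of the first 20 in place of 0 were lowest in control 2. Counting error was small at the members' depth, and whether more libraries would change the calls was not tested.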
